A study of Sus scrofa with 6 samples.

Results

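The 5 genes described here encode collagen chains that are not typical of hyaline cartilage matrix. COL1A2, COL3A1 and COL5A2 encode chains of the fibril-forming collagens I, III and V of fibrous tissue. COL8A1 encodes a chain of the short, network-forming collagen VIII, and COL4A2 a chain of collagen IV, the collagen of basement membranes. They were chosen by gene symbol, with earlier results of these data known. Shares of all genes given beside them are therefore background and not a test. The platform annotation gives 10 probe sets for them out of 23999, and all 5 genes were among the 5601 genes tested.

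Expression was measured in porcine cartilage on Affymetrix arrays, and each of the 6 arrays stands for a different condition. Growth plate cartilage and articular cartilage were each sampled as native tissue and as chondrocyte cultures harvested on day 10 and on day 20 of differentiation. Per the labels, cultures began from collagenase-freed cells and shared 1 medium, DMEM/Ham's F12 containing fetal bovine serum and antibiotics. The incubator was held at 37 °C, with oxygen and carbon dioxide both at 5%. All 6 RNA samples were amplified from 100 ng by the same protocol. Animal age and strain, and whether the arrays share animals or pools, are not given in the sources used here. There were no replicates, so a p-value from limma sets a difference only against how far the arrays depart from additive effects of tissue and stage.

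Fibril-forming collagens are triple helices that assemble into the cross-striated fibres that give a tissue its tensile strength. Collagen I is the main fibre of bone, tendon and skin, while hyaline cartilage is built on collagen II. Collagen V starts and limits the width of collagen I fibrils, and collagen III forms thin, pliable fibres in young or healing tissue. Collagens IV and VIII form sheet-like networks instead of fibres. Chondrocytes kept in culture are known for turning from collagen II towards collagens I and III, a shift called dedifferentiation.

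All 6 arrays carried chondrocyte transcripts. All 6 listed chondrocyte markers on the array (COL2A1, ACAN, SOX9, COMP, HAPLN1 and COL11A1) were above the floor, a signal of 36.1 under which values were not told apart. Their levels were not all steady. In culture minus native, 5 of the 6 had negative log2 differences and 1 a positive one, with a median of -0.43. SOX9 had signals of 175 (native), 125 (day 10) and 118 (day 20) for growth plate. In articular samples it had 982, 81.0 and 76.8. The native articular array stood apart from the rest, averaging a correlation over genes of 0.889 with its fellows against 0.930 to 0.939 for each other array. The differences of culture minus native of the 5 genes are therefore given with and without it. In tissue and culture RNA, fewer cells of a type and less RNA per cell cannot be told apart.

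Day 20 of culture was the high point for all 5 genes, each measured by its brightest probe set. In both tissues the day 20 signal of every gene was above its native and its day 10 signal, an order that 14.8% of all genes tested showed. COL5A2 was below the floor in both native tissues, so for it the native part of this order was fixed in advance. Day 20 above day 10 in both tissues, without regard to native tissue, held for 33% of all genes, and 3 of the 5 (COL3A1, COL8A1 and COL4A2) were at least 2-fold higher, against 2.46%. COL1A2, COL8A1 and COL4A2 were at least 2-fold higher at day 20 than in native tissue in both tissues, as 2.61% of all genes were. COL5A2 was too, but it was below the floor in both native tissues and could only be higher in culture, so it does not count towards this. Only 1 of the 5, COL8A1, was at least 2-fold higher than native in both tissues by day 10, against 3.21% of all genes.

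**Figure D1:**
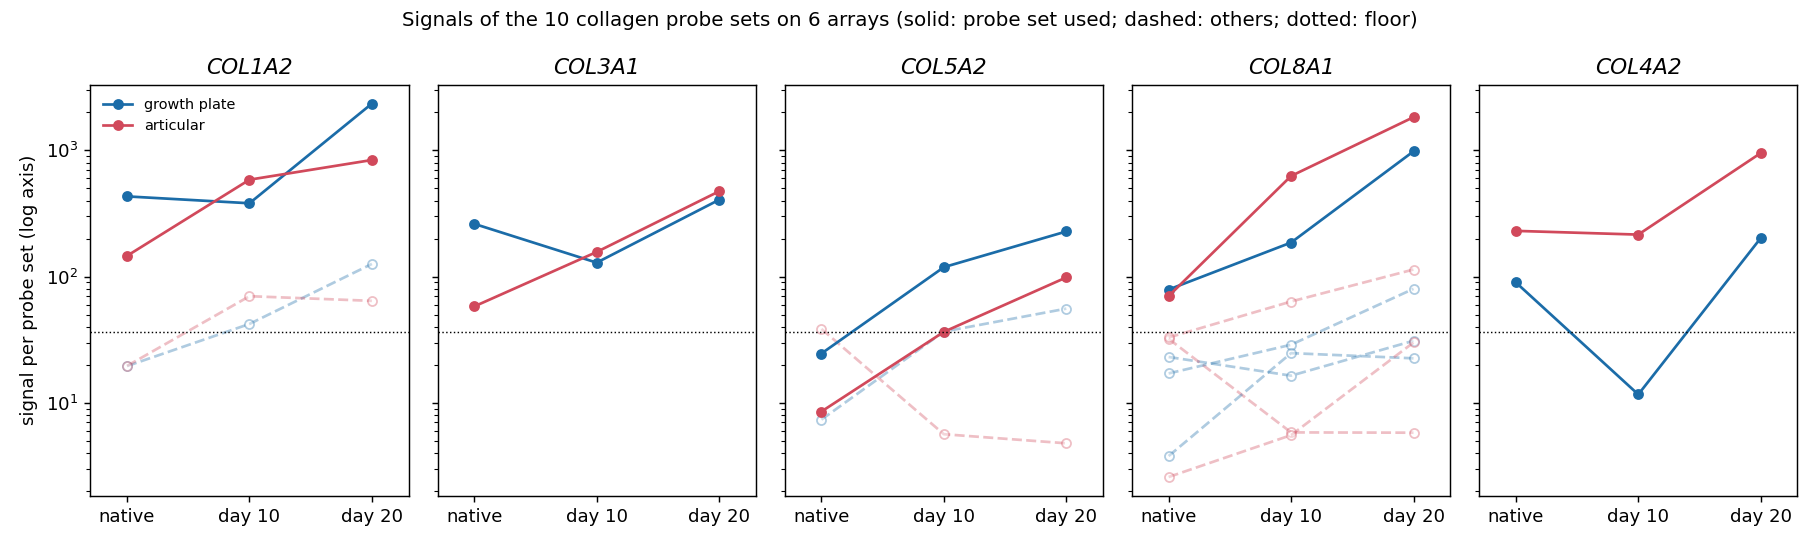
Signal of each probe set (log axis) in native tissue, at day 10 and at day 20, for growth plate (blue) and articular (red) arrays, 1 array per point. Solid lines are the probe set used for the gene, dashed lines its other probe sets, and the dotted line is the floor of 36.1. The solid lines all end highest at day 20.

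COL1A2, the alpha 2 chain of collagen I, had signals of 432 in native growth plate cartilage, 381 at day 10 and 2343 at day 20. In articular samples it had 146, 585 and 838. Growth plate cultures stayed near the native level at day 10 and were 6.15-fold higher at day 20 than at day 10. Articular cultures did the reverse, with a 4.01-fold difference from native by day 10 and a 1.43-fold difference from day 10 to day 20. The residual SD that limma fitted for it was 0.58 on the log2 scale. That SD is drawn towards the spread of other genes, so it is not the gene's own departure from additive effects. It is more than the 0.18 between native growth plate and its day 10 culture and the 0.52 between the articular culture days. The SD describes a single array, and a difference between single arrays varies more. The 0.62 between the day 10 cultures of the tissues is therefore within that wider spread as well.

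The order of COL1A2 levels between the tissues switched at each stage, though the day 10 difference was within the fitted spread of a difference. Native growth plate cartilage was 2.96-fold above native articular cartilage, the day 10 growth plate culture was 1.54-fold below the articular one, and the day 20 growth plate culture was 2.80-fold above it. The highest of the 6 signals was that of the day 20 growth plate culture and the lowest that of native articular cartilage. A second COL1A2 probe set was dimmer, at 19.6, 42.2 and 126 for growth plate against 19.6, 70.0 and 64.3 for articular samples. It shared the lower growth plate signal at day 10 and the high growth plate signal at day 20. Unlike the brighter probe set, it was above native in growth plate at day 10, and in articular cultures its day 20 signal was below its day 10 signal. In native tissue the dimmer probe set was below the floor, so it does not bear on the native difference between the tissues or on a switch from it.

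COL3A1, which encodes the single chain of collagen III, was measured by 1 probe set. Its signals were 262, 129 and 406 for growth plate against 58.0, 157 and 473 for articular samples. The cultures of both tissues had close levels, 1.21-fold apart at day 10 and 1.17-fold apart at day 20. The native tissues did not. Native growth plate cartilage was 4.51-fold above native articular cartilage, where 3.45% of all genes were at least 4-fold higher in that direction.

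From native to day 10, COL3A1 was 2.03-fold lower in growth plate and 2.70-fold higher in articular samples. From day 10 to day 20 it was 3.15-fold higher in growth plate and 3.02-fold higher in articular samples. The stretch from day 10 to day 20 was thus nearly equal in both cultures, and the stretch before it ran opposite ways. With 1 array per condition, that opposition was not tested.

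COL5A2 encodes the alpha 2 chain of collagen V. Its signals were 24.6, 119 and 228 for growth plate against 8.54, 36.5 and 98.5 for articular samples. Both native signals were below the floor, and the day 10 articular signal lay just above it. The gene passed the filter on low signals through its cultures alone, so that it could only be higher in culture than in native tissue. The day 20 culture was at least 6.30-fold above native in growth plate and at least 2.73-fold above it in articular samples.

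Among the 5 genes only COL5A2 exceeded its articular level by 2-fold or more in growth plate cultures of both days, by 3.25-fold at day 10 and 2.31-fold at day 20. Of all genes, 0.893% did so. Its neighbour on the chromosome, COL3A1, with 0 other annotated genes between them in the RefSeq table, did not share this difference. The other COL5A2 probe set was at or near the floor, at 7.37, 36.7 and 55.8 for growth plate against 38.5, 5.65 and 4.79 for articular samples.

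COL8A1 encodes the alpha 1 chain of collagen VIII. Its signals were 79.0, 186 and 981 for growth plate against 70.1, 626 and 1829 for articular samples. The native tissues were 1.13-fold apart. Each step in culture was upwards in both tissues, by 2.36-fold and 5.28-fold in growth plate and by 8.93-fold and 2.92-fold in articular samples.

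The articular culture was therefore ahead of the growth plate culture in COL8A1, by 3.37-fold at day 10 and 1.86-fold at day 20. At day 20 the gene was 12.4-fold above native in growth plate and 26.1-fold above native in articular samples. Only 0.964% and 4.37% of all genes were at least 4-fold higher in these pairs. A second probe set of COL8A1 was dimmer, at 17.1, 28.9 and 80.0 for growth plate against 32.96, 63.5 and 114 for articular samples. Both native signals and the day 10 growth plate signal were below the floor. It therefore does not bear on the growth plate step from native to day 10, and its other steps were upwards. Another pair of COL8A1 probe sets lay below the floor on all 6 arrays.

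COL4A2, which pairs with the alpha 1 chain of collagen IV, was measured by 1 probe set. Its signals were 89.9, 11.7 and 202 for growth plate against 230, 215 and 951 for articular samples. The growth plate signal was below the articular one at every stage, by 2.56-fold for the native pair, by 5.95-fold or more on day 10 and by 4.71-fold on day 20. At both culture days it was at least 2-fold lower, as 1.21% of all genes were. COL4A2 was one of 18 genes (0.321% of all genes) whose growth plate signal was 2-fold or more below the articular one at all 3 stages.

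The lowest articular COL4A2 signal, 215 at day 10, was close to the highest growth plate signal, 202 at day 20. Articular levels were nearly the same in native tissue and at day 10, 1.07-fold apart, and then 4.42-fold higher at day 20. In growth plate the day 10 signal was under the floor, at least 2.49-fold below native, and day 20 was at least 5.59-fold above day 10. Of the listed endothelial markers, cells whose vessels carry basement membrane, 5 of the 7 on the array (VWF, CDH5, KDR, TEK and TIE1) were below the floor on all 6 arrays. PECAM1 had 67.2, 52.9 and 52.6 for growth plate against 277, 118 and 65.6 for articular samples, lower in each culture than in its native tissue. CLDN5, the other endothelial marker above the floor on any array, had 29.1, 3.87 and 94.2 for growth plate against 39.8, 26.9 and 99.5 for articular samples, and so was highest at day 20 in both tissues, as COL4A2 was. The part of these cells in the COL4A2 differences was not tested.

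**Figure D2:**
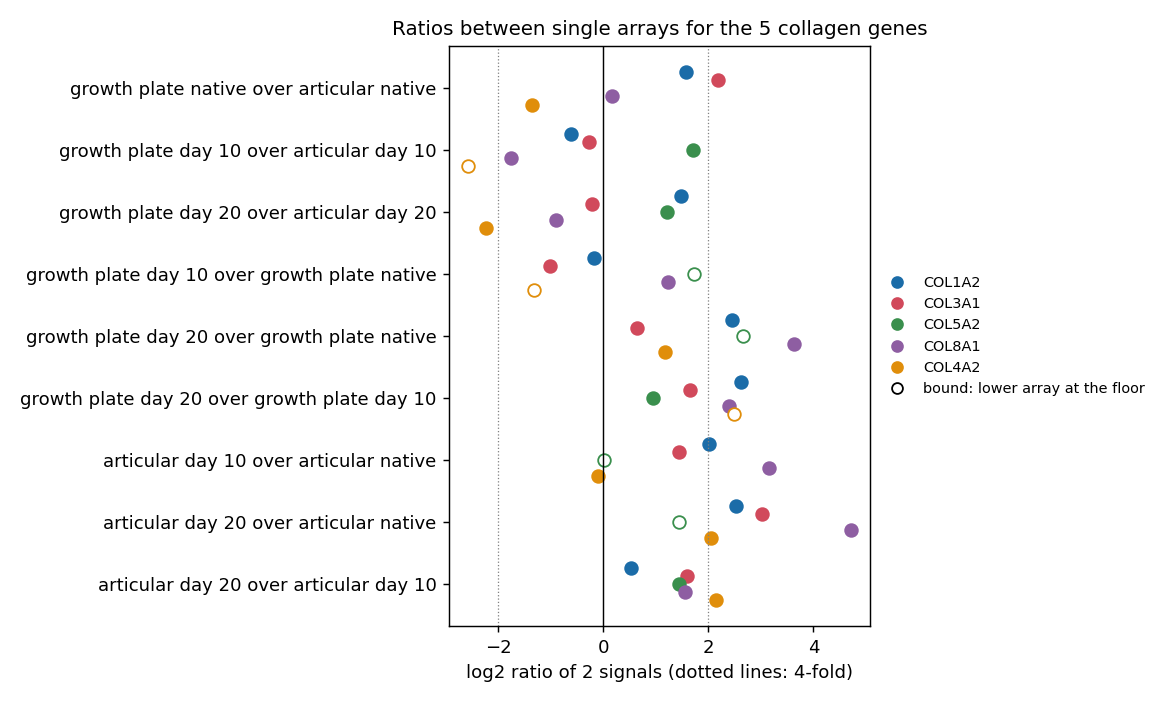
Log2 ratio of the signals of 2 single arrays for each gene and each of 9 pairs. Open points are bounds because the lower array is at the floor, a pair with both arrays at the floor has no point, and dotted lines mark 4-fold. Points of the day 20 over native and day 20 over day 10 pairs lie right of 0, while points of the tissue pairs lie on both sides.

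Of the 45 ratios of single arrays (5 genes in 9 pairs), 16 were at least 4-fold, the bound for COL5A2 at day 20 over native growth plate included. In articular samples 4 of the 5 genes were at least 4-fold higher at day 20 than in native tissue, against 4.37% of all genes. In growth plate COL1A2 and COL8A1 were, against 0.964%. COL5A2 also passed 4-fold in growth plate, but its direction was fixed by the filter on low signals, so it does not count towards this. Between day 10 and day 20, 3 of 5 were at least 4-fold higher in growth plate (1.5% of all genes) and 1 of 5 in articular cultures (0.875%). From native to day 10, 2 of 5 were at least 4-fold higher in articular samples (4.46% of all genes) and 0 of 5 in growth plate (0.428%). Between the tissues, COL4A2 alone lay 4-fold or more below its articular level at day 10 (0.5% of all genes) and at day 20 (0.75%), and COL3A1 alone was 4-fold higher in native growth plate. The median log2 ratio of the 5 genes from native growth plate to its day 10 culture was -0.18, where over all genes it was 0.03.

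The test of day 20 against day 10 depended on which arrays were fitted. In the fit to all 6 arrays the log2 differences were 1.57 ± 0.58 (SE) for COL1A2, 1.62 ± 0.67 for COL3A1, 1.19 ± 0.46 for COL5A2, 1.97 ± 0.50 for COL8A1 and at least 2.31 ± 0.42 for COL4A2. None of the 5 was called, where a call needs a limma adjusted p under 0.05 and a 2-fold change. The limma adjusted p was lowest for COL4A2, at 0.151, and 0.221 to 0.343 for the others. Over all genes 0 (0%) were called in that fit, and 820 (14.6%) had an unadjusted p under 0.05.

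When limma was fitted to the 4 cultures without native tissue, which leaves 1 residual degree of freedom beside a prior of 11.9, the same 5 differences all passed. All 5 genes rose from day 10 to day 20 in that fit, where 4.7% of the 5473 genes tested were called higher, 4.6% lower and 9.3% in all. COL4A2 was at least 4.97-fold higher with a limma adjusted p of 3.2e-04, and COL8A1 was 3.93-fold higher with a limma adjusted p of 3.4e-04. COL3A1 was 3.08-fold higher (limma adjusted p = 0.0025), COL1A2 2.97-fold (0.011) and COL5A2 2.27-fold (0.026). Leaving out either native array gives the same differences from the same 4 cultures. Leaving out any one culture left 0 of the 5 called, with at most 3 genes called over the whole table.

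**Figure D3:**
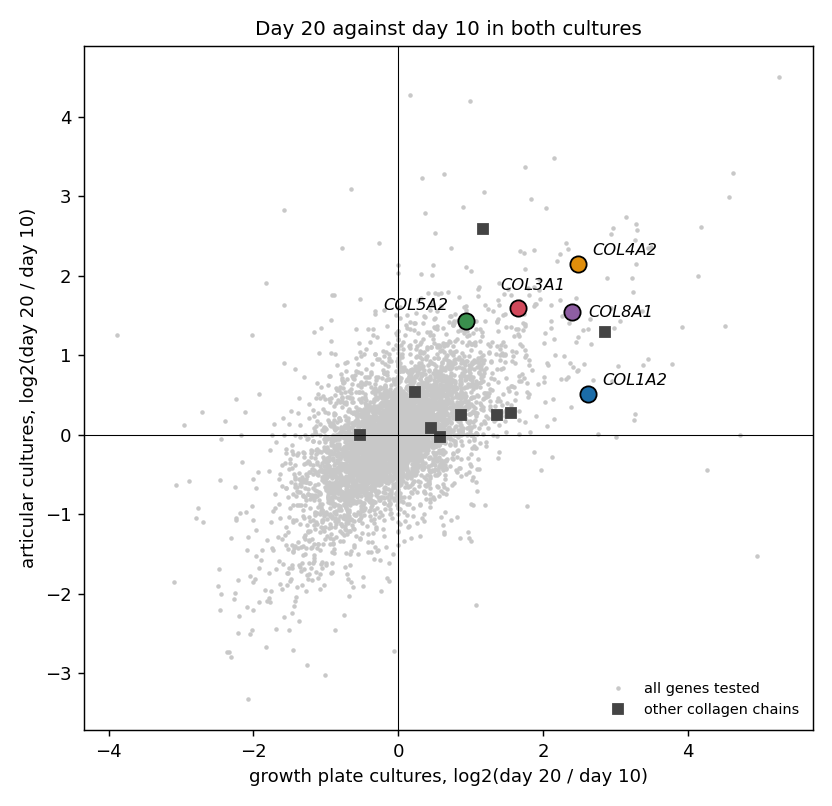
Log2 ratio of day 20 over day 10 in growth plate cultures (horizontal) and in articular cultures (vertical), 1 point per gene. Grey points are all 5601 genes tested, black squares are the other collagen chains, and large coloured points are the 5 genes, all of which lie above 0 on both axes.

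Between the cultures of the tissues, the 5 genes divided. In the fit to the 4 cultured arrays COL5A2 was higher in growth plate cultures, by 2.74-fold with a limma adjusted p of 0.029, where 1.21% of genes were called higher. COL8A1 and COL4A2 were lower in growth plate cultures, with log2 differences of -1.32 ± 0.26 (SE; limma adjusted p = 0.013) and, as a bound, -2.40 ± 0.30 (limma adjusted p = 5.6e-04), where 1.55% were called lower and 2.76% in all. COL1A2 and COL3A1 were not called, with log2 differences of 0.43 ± 0.37 (SE) and -0.25 ± 0.29. Leaving out any one culture left 0 of the 5 called between the tissues. Of the other collagen chains of fibrous tissue, COL6A2 was called lower in growth plate cultures (2.21-fold, limma adjusted p = 0.016). The median log2 difference of the 7 chains measured, with COL1A2, COL3A1 and COL5A2 among them, was -0.25.

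With the native arrays included, none of the 5 was called between the tissues, where 0.0536% of all genes were (3 genes) and 10.7% had an unadjusted p under 0.05. COL4A2 came closest, lower in growth plate by 2.06 ± 0.34 (SE) or more on the log2 scale, the 25th smallest p of 5601 genes, and a limma adjusted p of 0.234. COL8A1 had -0.83 ± 0.41, COL5A2 0.97 ± 0.38, COL1A2 0.81 ± 0.48 and COL3A1 0.56 ± 0.54. The positive sign for COL3A1 came from native tissue, since in the cultures alone its difference was -0.25.

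Among the 5 genes, culture against native tissue differed most in COL8A1, at 3.18 ± 0.44 (SE) on the log2 scale or 9.09-fold, the 16th smallest p of all genes, with a limma adjusted p of 0.101. COL1A2 was 3.24-fold higher in culture (1.70 ± 0.50), COL5A2 at least 2.75-fold (1.46 ± 0.40), COL3A1 2.03-fold (1.02 ± 0.58) and COL4A2 at most 1.37-fold (0.45 ± 0.36). None of the 5 was called with limma, and over all genes 0 (0%) were, while 1089 (19.4%) had an unadjusted p under 0.05. Of all genes, 6.5% were at least 2-fold higher in culture on average.

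The choice of native array set much of the culture difference. Without native articular cartilage, native tissue is the growth plate array alone, and COL8A1 rose (5.41-fold, limma adjusted p = 0.0036), where 1.73% of genes were called higher. COL5A2 was also called (at least 4.55-fold, limma adjusted p = 0.011), but its direction was fixed by the filter on low signals. COL1A2 was then 2.19-fold higher with a limma adjusted p of 0.195, and COL3A1 and COL4A2 had log2 differences of -0.19 and at most -0.07. Without native growth plate cartilage COL8A1 (15.3-fold, 2.1e-05), COL3A1 (4.69-fold, 0.0011) and COL1A2 (4.80-fold, 0.0052) rose, by limma adjusted p, where 13.6% of genes were called higher. In these fits the lone native array is assumed to vary like the cultures. COL8A1 was the only one of the 5 called in both. It was also called without the day 10 or the day 20 growth plate culture (limma adjusted p = 0.032 and 0.018), and not without either articular culture (0.065 and 0.053).

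Other chains of fibrous tissue collagens were set beside the 5 genes. In the fit to the 4 cultured arrays, 7 fibrous tissue collagens were measured, of which 4 were called higher at day 20 than at day 10 and 0 lower. Of these, 3 were COL1A2, COL3A1 and COL5A2, and the fourth was COL5A3, the alpha 3 chain of collagen V, with signals of 40.9 and 92.1 in growth plate cultures and 34.6 (below the floor) and 217 in articular cultures. The median log2 difference of the 7 was 1.19, where over all genes it was -0.03. COL5A1, the partner chain of COL5A2, had a log2 difference of 0.92 ± 0.23 (SE), short of 2-fold, with signals of 4541, 2628 and 7754 for growth plate against 4973, 4575 and 5535 for articular samples.

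Collagen VI, which forms the beaded filaments around chondrocytes, ran lower in culture. COL6A2 had signals of 4356, 879 and 2259 for growth plate against 7875, 2864 and 3400 for articular samples. COL6A3 had 11044, 4144 and 6183 for growth plate against 17244, 8017 and 7878 for articular samples. Their log2 differences of culture minus native were -1.48 ± 0.27 (SE) and -1.12 ± 0.18, with limma adjusted p of 0.113 and 0.104, so neither was called. Without native articular cartilage both fell, with -1.63 ± 0.28 and -1.13 ± 0.19 (limma adjusted p = 0.0094 and 0.0081). Every culture was below its native tissue in both genes. Without the 3 genes described above, the 4 other fibrous tissue collagens had a median log2 difference of -0.56 in culture minus native, where with them the 7 had 1.02. Without native articular cartilage these medians were -0.57 and -0.00860, so that the sign of the second turned.

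Basement membrane and network genes were a further list. Of 8 measured, 3 were called higher at day 20 than at day 10 in the fit to the 4 cultured arrays and 0 lower. They were COL4A2, COL8A1 and COL7A1, the anchoring fibril collagen, which had 86.5, 38.4 and 278 for growth plate against 37.8, 50.8 and 125 for articular samples. The other 5 were not called. Their log2 differences in that fit were 0.80 ± 0.24 (SE) for the laminin chain LAMB1, 0.56 ± 0.17 for COL15A1, 0.52 ± 0.28 for LAMB2, 0.02 ± 0.17 for LAMC1 and -0.05 ± 0.20 for nidogen 2 (NID2), which links laminin to collagen IV. The median of the 8 was 0.68. In culture minus native, NID2 had -1.29 ± 0.20 with a limma adjusted p of 0.101, and without native articular cartilage -1.41 ± 0.23 (0.0078). Of the 8, 3 were called lower in growth plate than in articular cultures, COL4A2, COL8A1 and COL15A1, a collagen of the outer basement membrane. Over all genes 1.55% were called lower.

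Cartilage collagens were measured over the same arrays. Of 3 measured (COL2A1, COL11A1 and COL10A1), 0 were called between day 10 and day 20 in the fit to the 4 cultured arrays. COL2A1, the main collagen of hyaline cartilage, had 1615, 1361 and 1603 for growth plate against 2929, 1164 and 1689 for articular samples. Its log2 difference of day 20 minus day 10 was 0.39 ± 0.31 (SE) in the fit to all arrays, and that of culture minus native was -0.60 ± 0.27. Neither was called. Without native articular cartilage the second was -0.13 ± 0.24. COL10A1, the collagen of hypertrophic cartilage, was called higher in growth plate than in articular cultures, by at least 54.9-fold, its articular signals all being below the floor. It passed the filter through growth plate alone, so its direction was fixed.

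**Figure D4:**
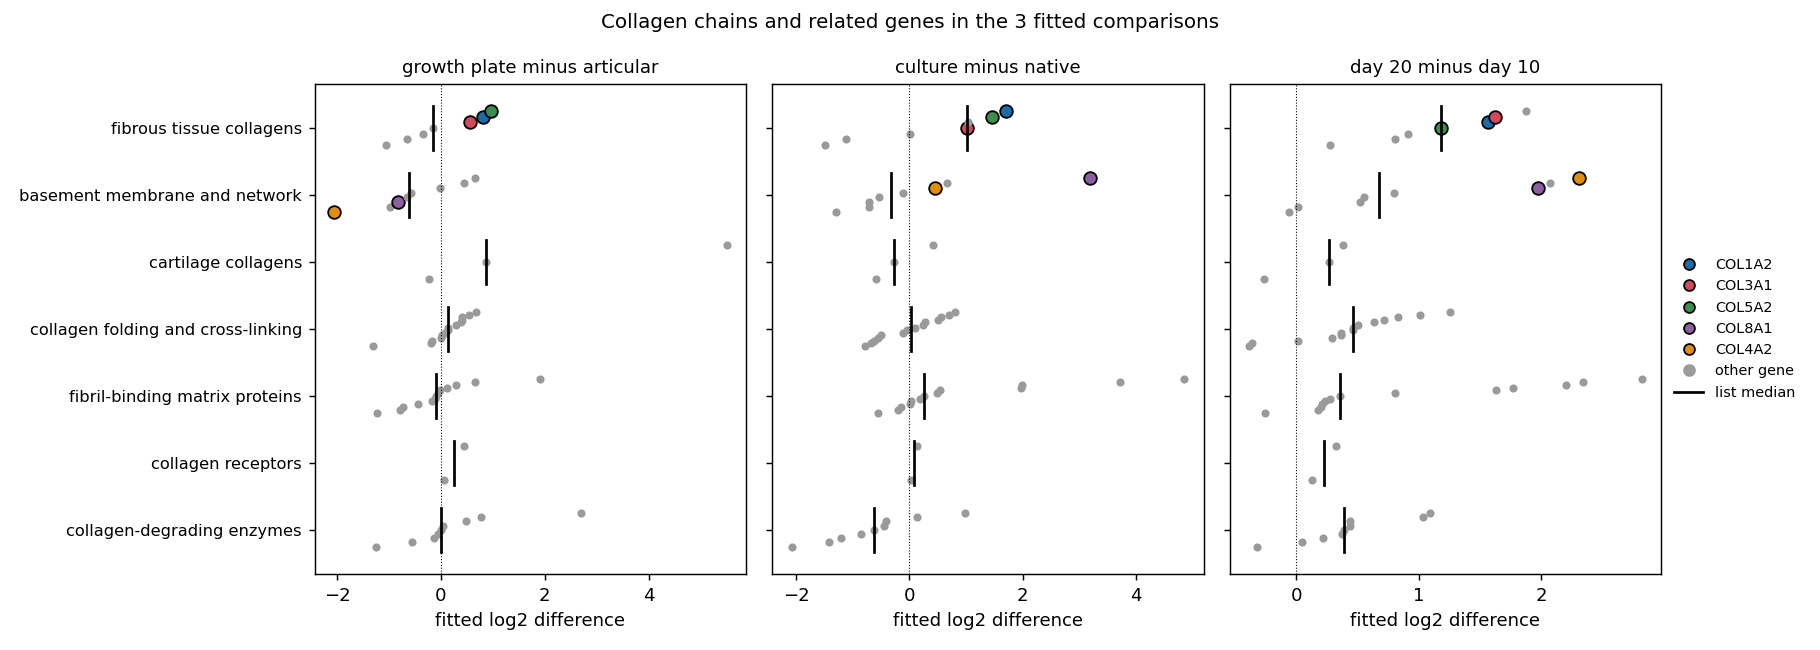
Fitted log2 difference of each measured gene in 7 lists, for growth plate minus articular, culture minus native and day 20 minus day 10, in the limma fit to all 6 arrays. Coloured points are the 5 genes, grey points are other genes and bars are list medians, of which all 7 are above 0 for day 20 minus day 10.

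Genes that fold, bind and degrade collagen were listed to set the 5 genes in their pathway. Of 14 measured genes of collagen folding, modification and cross-linking, 2 were called higher at day 20 than at day 10 in the fit to the 4 cultured arrays and 0 lower. They were CRTAP, part of the complex that hydroxylates proline in collagen chains (2.38-fold, limma adjusted p = 7.0e-04), and PLOD1, a lysyl hydroxylase (2.01-fold, 0.0031). In the fit to all 6 arrays their limma adjusted p was 0.152 and 0.203. Over all genes 4.7% were called higher in the fit to the 4 cultured arrays. The median log2 difference of the 14 was 0.47. LOXL1, a cross-linking lysyl oxidase, was called lower in growth plate than in articular cultures, by 3.90-fold, where 1.55% of genes were called lower.

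Of 13 measured fibril-binding matrix proteins, 5 were called higher at day 20 than at day 10 and 0 lower in the same fit. They were POSTN, a matricellular protein of fibrous tissue, the small leucine-rich proteoglycans DCN, LUM and ASPN, which coat collagen fibrils, and THBS2. Over all genes in that fit 4.7% were called higher. Without the day 10 growth plate culture the log2 differences of ASPN and THBS2 turned to -0.034 and -0.48. In the fit to all 6 arrays the limma adjusted p was 0.509 for ASPN, 0.572 for THBS2, 0.190 for POSTN, 0.221 for DCN and 0.431 for LUM. POSTN had the largest difference of the 5, at least 7.07-fold, with signals of 38.8, 12.9 and 161 for growth plate against 22.1, 84.7 and 949 for articular samples. POSTN and ASPN were called lower in growth plate than in articular cultures, by at least 3.71-fold and by 3.06-fold, where 1.55% of genes were called lower. Of 9 collagen-degrading enzymes and inhibitors, 2 were called higher and 0 lower, the gelatinase MMP2 (2.13-fold) and the fibroblast protease FAP (2.05-fold). Their limma adjusted p in the fit to all 6 arrays was 0.208 and 0.327. Growth plate cultures were called higher than articular ones in the inhibitor TIMP3, by 3.13-fold, where 1.21% of genes were called higher. The collagenase MMP13 was also called, by at least 10.9-fold. Its articular culture signals of 27.0 and 30.5 were below the floor. MMP13 thus passed the filter in that fit through growth plate cultures alone and could only be higher there. Of 2 measured collagen receptors, ITGB1 and DDR1, 0 were called.

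Markers of other cells moved over the same arrays. The 3 listed fibroblast and tendon cell markers on the array (THY1, S100A4 and PDGFRB, of 7 listed) had summed signals of 12550, 4567 and 12598 for growth plate against 3258, 9510 and 14974 for articular samples. All 5 listed pericyte and smooth muscle markers on the array (of 7) were above the floor on at least 1 array, and their sum was 11558, 14785 and 18599 for growth plate against 2734, 15851 and 21345 for articular samples. TNMD, SCX, MKX and PDGFRA were not analysed here. The pericyte and smooth muscle sum was highest at day 20 in each tissue and lowest in native articular cartilage. It was mostly ACTA2, which had 11456, 14481 and 17679 for growth plate against 2642, 14768 and 19493 for articular samples. CNN1 was also highest at day 20 in each tissue, and so was DES, which was below the floor in both native tissues. RGS5 and MCAM, the rest of this list on the array, did not pass the filter on low signals. Their combined signal in articular samples was highest at day 10, not at day 20. The 3 fibroblast markers differed among themselves. THY1, the brightest, had 6583, 2894 and 8968 for growth plate against 1818, 7416 and 10631 for articular samples. In growth plate S100A4 and PDGFRB were highest in native tissue, at 4953 and 1013, against 2689 and 941 at day 20. In articular samples both were highest at day 20, at 2226 and 2117, and PDGFRB was lowest at day 10, at 839. The part of these cells in the collagen differences was not tested. Of 5 macrophage markers on the array, 3 (CD163, CD74 and TYROBP) were below the floor on all arrays, and the list's sum was between 38.0 and 96.8. The summed endothelial markers were between 89.5 and 344. Osteoblast markers, 6 on the array with PHEX below the floor throughout, summed to between 11027 and 29690, and the erythroid markers, with ALAS2 below the floor throughout, to between 256 and 636. The osteoblast marker IBSP had 10642, 14034 and 15675 for growth plate against 53.2, 309 and 5958 for articular samples. SPP1 went the other way in articular samples, with 14127, 11654 and 13958 for growth plate against 19241, 10658 and 4955. The part of osteoblasts in the collagen differences was not tested either.

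Each of the 5 genes was also compared with all others by pattern. The measure was the root mean square difference, on the log2 scale over the 6 arrays, after each gene was centred on its own mean. COL3A1 had the closest neighbour, SLC9A3R2, a scaffold protein of membrane transporters, at 0.11, where the median over all genes was 1.10. ALDOC, a glycolytic enzyme, and EFEMP2, an elastic fibre protein, followed at 0.22 and 0.23, and FAM162A at 0.28. All 4 shared the low native articular signal and the dip of the growth plate culture at day 10.

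COL1A2 lay closest to HEY2, a transcription factor of Notch signalling (0.36), CKB, a creatine kinase (0.38), GPT (0.43) and PLPPR5 (0.43). COL5A2 lay closest to LIMA1, an actin-binding protein (0.24), ZFP42 (0.32), HES1 (0.36) and PICALM (0.44). COL8A1 lay closest to GUCY1B3, a subunit of soluble guanylate cyclase (0.36), VCAN, the large proteoglycan of fibrous matrix (0.39), CNN1, the smooth muscle calponin (0.49), and TMEM26 (0.55). VCAN had 84.8, 136 and 1312 for growth plate against 92.0, 457 and 2489 for articular samples. COL4A2 had more distant neighbours, TFPI2 at 0.54, EMILIN2 at 0.54, AQP1 at 0.59 and EGR1 at 0.64.

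Among the 5 genes themselves, COL1A2 and COL3A1 were closest, at 0.62, and 26th in COL1A2's order of all genes. COL5A2 and COL4A2 were farthest apart, at 1.76. COL8A1 and COL4A2, which form networks, were 1.44 apart, and COL4A2 was 294th in COL8A1's order of all genes. The median distance of all genes from COL8A1 was 1.81. None of the 5 was among the 4 nearest genes of another.

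**Figure D5:**
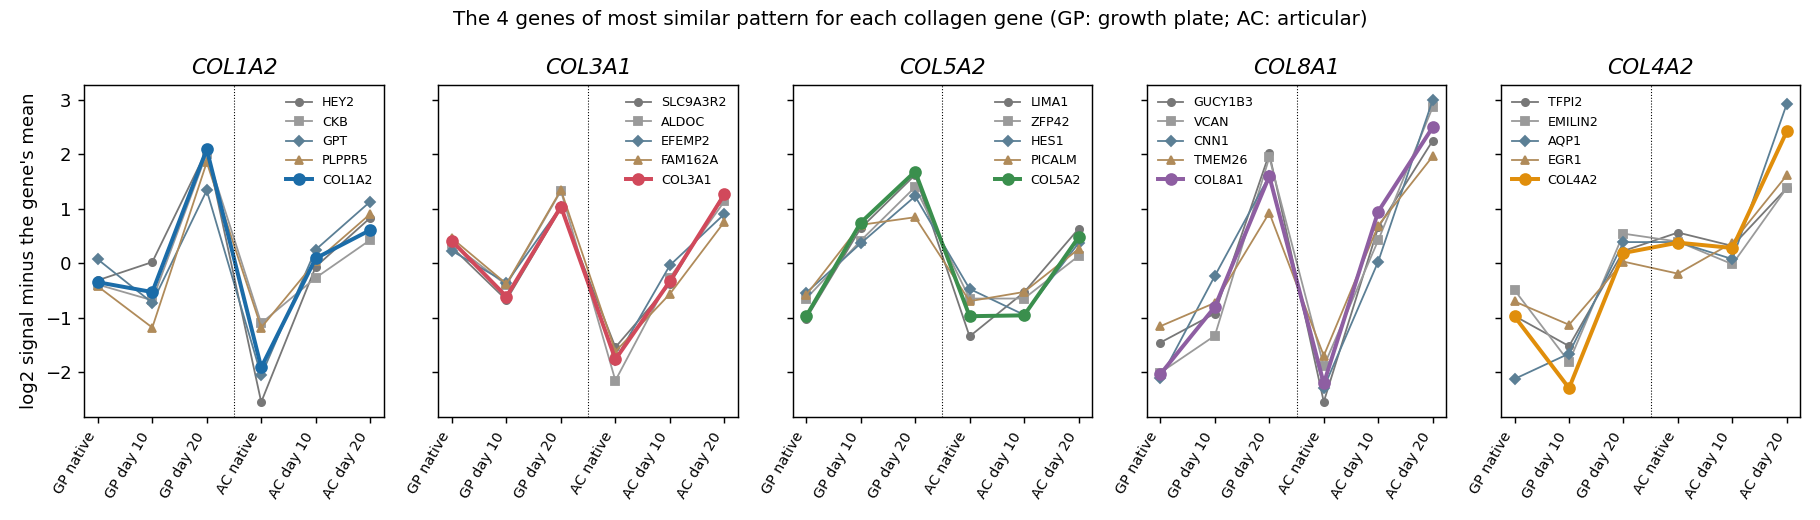
Log2 signal minus the gene's own mean over the 6 arrays (GP, growth plate; AC, articular) for each of the 5 genes (thick line) and the 4 genes of most similar pattern. The COL3A1 lines nearly coincide, within a root mean square difference of 0.11 to 0.28, while those around COL4A2 spread most, at 0.54 to 0.64.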

How the data were processed

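Affymetrix arrays gave 1 signal intensity per probe set, on a linear scale; the authors made these deposited intensities with GCOS 1.4, according to the submitters' processing notes, and neither the algorithm's settings nor its scaling target are given in the sources used here. Means trimmed by 2% at each end were equal across arrays to within a ratio of 1.00005, and no further normalization was applied. Control probe sets (124) were dropped. Signals under the 40th percentile of the rest (36.1) were set to that value before taking log2. The number of arrays limits the precision.

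Gene names came from the platform annotation, with current symbols from RefSeq for 9961 of the 10069 probe sets that had 1 symbol. Each of 6765 genes was represented by its probe set of highest mean log2 signal, and the 5601 above the floor on at least 2 arrays were tested. An additive model of tissue and stage was fitted with limma 3.58.1 in R 4.3.3 (packages data.table, version 1.17.8, and jsonlite, version 2.0.0) with an intensity trend, 2 residual degrees of freedom and a prior of 3.74. P-values were adjusted by Benjamini-Hochberg over all genes. The procedure was tested on simulated data. Pairs of single arrays were compared by ratio, counting those at least 4-fold apart, with no test. Where the lower value is at the floor, folds are written "at least".

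The 5 genes, the 7 pathway lists and the 7 lists of cell markers were chosen with earlier results of these data known. Genes named were the 5 genes, other collagen chains, up to 4 genes per list of largest difference and all called ones, and the 4 nearest patterns. LAMC1, LAMB2, VCAN's signals and the markers were given outside that rule, after their values were seen. Alternatives were quantile normalization, median centring, floors at the 25th and 60th percentile, a pseudocount of 32, no filter, a filter on all 6 arrays, averaged probe sets, all probe sets as separate features, the other probe sets of the 5 genes, no trend, days pooled, the 4 cultures alone, a 2-fold rule for pairs, and leaving out each array.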

Additional observations from a re-analysis of the deposited data

Results flagged for a closer look

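The dimmer COL5A2 probe set was the only one of the 10 probe sets whose cultures of both days lay above native tissue in growth plate and below it in articular samples. After the floor, its mean log2 difference of culture minus native was 0.32 in growth plate and -0.09 in articular samples, 0.42 apart. Its articular cultures were below the floor and its native articular signal of 38.5 was just above it. The difference between the tissues was not tested, and the brighter COL5A2 probe set was higher in culture in both tissues.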

How the results depend on the processing

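No paired analysis was possible because each condition has 1 array and the labels carry no replicate numbers. The number of genes called between the tissues was 3 and became 6 with quantile normalization, 8 with median centring, 5 and 6 with floors at the 25th and 60th percentile, 6 with the pseudocount, 7 with the days pooled, 1 with averaged probe sets or without the trend, 0 without a filter, with the filter on all 6 arrays or with all probe sets as features, and 151 in the 4 cultures alone, where 3 of the 5 collagen genes were called. For culture against native it was 0 and became 9 with median centring, 5 with the floor at the 60th percentile, 4 with the pseudocount, 3 with the filter on all 6 arrays and 1 with all probe sets as features. For day 20 against day 10 it was 0 and became 509 in the 4 cultures alone, with all 5 collagen genes called. Leaving out 1 array gave 2 to 141 genes between the tissues (0 to 3 of the 5 collagen genes), 7 to 1168 for culture (0 to 3) and 0 to 506 for the days (0 to 5).

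The 16 ratios of at least 4-fold became 33 under the 2-fold rule, 13 with quantile normalization and 9 with averaged probe sets. They became 10 with the filter on all 6 arrays, which keeps only 3 of the 5 genes. With quantile normalization COL3A1 in native growth plate over native articular cartilage fell under 4-fold, at a log2 ratio of 1.95. So did COL1A2 in articular samples at day 10 over native, at 1.70. With the filter on all 6 arrays 3 genes were higher at day 20 than at day 10 in both tissues and 2 were at least 2-fold above native in both, which also numbered 2 with the floor at the 60th percentile. Some differences reversed. COL3A1 between the tissues was -0.25 in the 4 cultures alone and ran from -0.25 (without either native array) to 0.97 over the fits that left out 1 array. Without native articular cartilage, culture minus native was -0.19 for COL3A1, -0.075 for COL4A2, -0.25 for THBS2, 0.34 for TIMP3 and -0.00860 for the median of fibrous tissue collagens. The far ends over the arrays left out were 2.23, 0.97, 4.22, -3.18 and 1.31. Without the day 10 growth plate culture, day 20 minus day 10 was -0.034 for ASPN and -0.48 for THBS2, with far ends of 4.44 and 4.01. The cause was not tested. Signals near the floor limit the dim probe sets of COL5A2, COL8A1 and COL1A2.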
